A study of Trichoderma reesei with 9 samples.

Results

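The comparison of high melanin necromass with glucose covered 6 of the 9 libraries of the series, 3 per substrate, and 9312 of the 9849 genes in the count table. Members were chosen by the labelled substrate alone, and the genes tested were those with at least 10 counts in at least 3 libraries. All cultures were *Trichoderma reesei* RUT-C30, a cellulase-hyperproducing strain with a truncated *cre1* gene and therefore without normal carbon catabolite repression. Biomass raised in malt extract broth was kept in carbon-free Highley's medium and then grown for 7 days in Highley's medium with glucose at 1% (w/v) or high melanin necromass at 0.45% (w/v), which is freeze-dried dead mycelium of the melanized ascomycete *H. bicolor*. The remaining 3 libraries came from 0.45% (w/v) low melanin necromass of the same fungus and served to ask which changes were larger on the high melanin substrate. Glucose and necromass were given at different doses, and each necromass type was harvested in bulk from cultures that also differed in medium volume and shaking speed, so melanin content cannot be told apart from the other properties of these 2 batches. The 3 replicates of a substrate were independent cultures.

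*T. reesei* is a soil ascomycete known for secreting very large amounts of a few enzymes. Cellobiohydrolases cut cellulose from its chain ends, endoglucanases cut within the chain, lytic polysaccharide monooxygenases (family AA9) cleave it by oxidation, and beta-glucosidases release glucose from the short products. Fungal walls instead hold chitin, beta- and alpha-glucans, mannans and often melanin, and chitinases of family GH18 hydrolyse chitin. Genes for carbohydrate-active enzymes (CAZymes) in this fungus are switched by zinc cluster transcription factors, and in wild-type strains CRE1 represses many of them on glucose.

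Total counts were 19602387 to 20541445 per library on glucose, 21447367 to 24635281 on high melanin necromass and 18074631 to 22327638 on low melanin necromass. Levels are counts per 1000000 counts (CPM) after scaling by the TMM factors of edgeR, which were 0.977 to 1.12 on glucose and 0.92 to 0.981 on high melanin necromass. A count of 3, used as the floor, corresponds to 0.128 to 0.158 CPM and covers counting error only. Glucose replicate 1 stood apart, with a level at least 2-fold away from both other glucose libraries in 267 of the 2076 genes called below, against 1 for replicate 2 and 2 for replicate 3. As in any bulk RNA measurement, fewer transcripts per cell and fewer expressing cells cannot be told apart.

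On high melanin necromass 1257 genes were up-regulated and 819 were down-regulated relative to glucose, where a call needed a log2 fold change of 2 or more upwards or downwards and an adjusted p under 0.05 in edgeR's quasi-likelihood test, adjusted by the Benjamini-Hochberg method. These are 13.5% and 8.8% of the genes tested, 22.3% in all, and 60.5% of all calls were increases. Scaling by library size alone gave 56.7% increases and moved the median of all genes by -0.11 on the log2 scale, from 0.02. Without the fold threshold, 7051 genes (75.7%) had an adjusted p under 0.05, 3564 higher and 3487 lower. The glucose and high melanin libraries did not overlap in 1255 of the 1257 up-regulated and in 798 of the 819 down-regulated genes, which the thresholds of the call favour by construction. The median log2 fold change was 3.26 among the up-regulated and -2.77 among the down-regulated genes. For comparison, 12.0% and 7.18% of genes passed the same thresholds upwards and downwards on low melanin necromass, a comparison that shares its glucose libraries with this one.

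The counts of *T. reesei* were concentrated in few genes on high melanin necromass. The 10 most abundant genes of each library held 34.1%, 31.2% and 35.7% of its counts on high melanin necromass, against 5.74%, 9.82% and 10.3% on glucose and 24.4%, 27.8% and 25.1% on low melanin necromass. Every high melanin library lay above every library of the other substrates, and the mean was 33.7% ± 2.29 (SD, n = 3) against 8.6% ± 2.49 on glucose, a difference of 25.1 percentage points. An exact two-sided permutation test gave p = 0.1, the smallest p that 3 against 3 libraries allow. The single most abundant gene alone held 9.69%, 8.65% and 10.4% of the counts on high melanin necromass and 0.762%, 2.24% and 2.38% on glucose. Conversely, 50% of the counts were reached with 139, 173 and 111 genes on high melanin necromass, while 436, 331 and 345 genes were needed on glucose and 273, 220 and 254 on low melanin necromass. The means were 141 ± 31 and 371 ± 57 genes (SD, n = 3), again without overlap and with an exact permutation p of 0.1. Glucose replicate 1 was the least concentrated library by both measures.

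**Figure D1:**
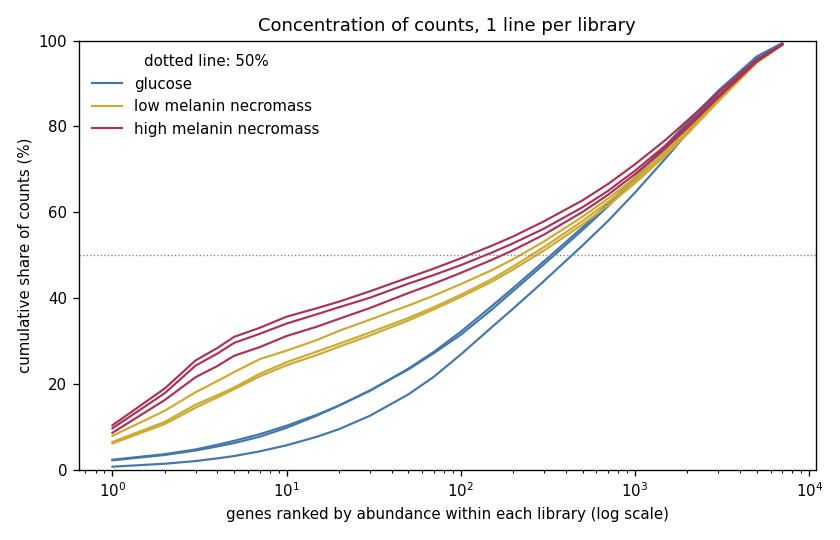
The share of counts (%, y axis) held by the most abundant genes of a library is plotted against gene rank (log scale, x axis), with 1 line per library and a dotted line at 50%. The 3 high melanin lines lie highest up to about rank 1000, with 31.2% to 35.7% of counts at rank 10, and the glucose lines lie lowest there, at 5.74% to 10.3%.

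The concentration lay at the very top of the ranking. The 100 most abundant genes held 47.6% ± 1.72 of counts on high melanin necromass and 30.2% ± 2.9 on glucose, and the 1000 most abundant held 69.9% ± 1.16 and 66.8% ± 1.95 (SD, n = 3). When the 10 most abundant genes of each library were left out, the order of the substrates turned. Of the remaining counts, 50% were spread over 812, 777 and 764 genes on high melanin necromass but over 508, 444 and 468 genes on glucose, with 718, 730 and 701 on low melanin necromass. The number of genes with at least 1 count was 9626 to 9654 on high melanin necromass and 9584 to 9658 on glucose, so the groups overlapped in it.

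Of the 10 genes with the highest mean share on high melanin necromass, 7 carry tags of cellulose-degrading families and 9 were up-regulated versus glucose. The first was the GH7 cellobiohydrolase-family gene with a cellulose-binding module (protein ID = 125125), with 5100, 4328 and 3121 counts on glucose and 2386990, 1986060 and 2231400 on high melanin necromass. It rose from 202 ± 42.0 to 101159 ± 12497 CPM (SD, n = 3), a log2 fold change of 8.97 ± 0.39 (SE, edgeR adjusted p = 6.64e-08). The GH6 cellobiohydrolase-family gene (protein ID = 122470) followed, with 3740, 2972 and 2094 counts on glucose, 2022250, 1764540 and 1844130 on high melanin necromass, and a log2 fold change of 9.25 ± 0.39 (edgeR adjusted p = 5.69e-08). The AA9 monooxygenase gene 122518 took 6.09% of the counts on high melanin necromass and 0.012% on glucose, and the GH5_5 endoglucanase gene 72489 took 2.73% and 0.0058%. The AA9 gene 139633, the GH12 gene 124438 and the GH45 gene 25940 took 1.06%, 1.02% and 0.926%. These 7 genes did not overlap between the substrates, with log2 fold changes of 8.23 to 9.55.

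The 3 other genes of the 10 behaved differently. The sugar porter gene 109243, of the major facilitator superfamily, took 2.51% of counts on high melanin necromass and rose by a log2 fold change of 4.56 ± 0.75 (edgeR adjusted p = 0.000349), with 3308, 28549 and 35080 counts on glucose against 623076, 559514 and 548438. Gene 124811, which encodes a protein with CXCXC repeats, rose by 3.66 ± 0.88 (edgeR adjusted p = 0.00379), with 1160, 28143 and 18303 counts on glucose against 214943, 214537 and 235393. In both genes glucose replicate 1 was the lowest library by a wide margin. Gene 135214, which has no entry in the annotation used, was also the most abundant gene on glucose, at 1.75% ± 0.982 of counts, and stood at 0.561% on high melanin necromass, where the groups overlapped and it was not called. It was the only gene among the 10 most abundant of both substrates, and 4 of the 10 most abundant genes on glucose were down-regulated on high melanin necromass.

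**Figure D2:**
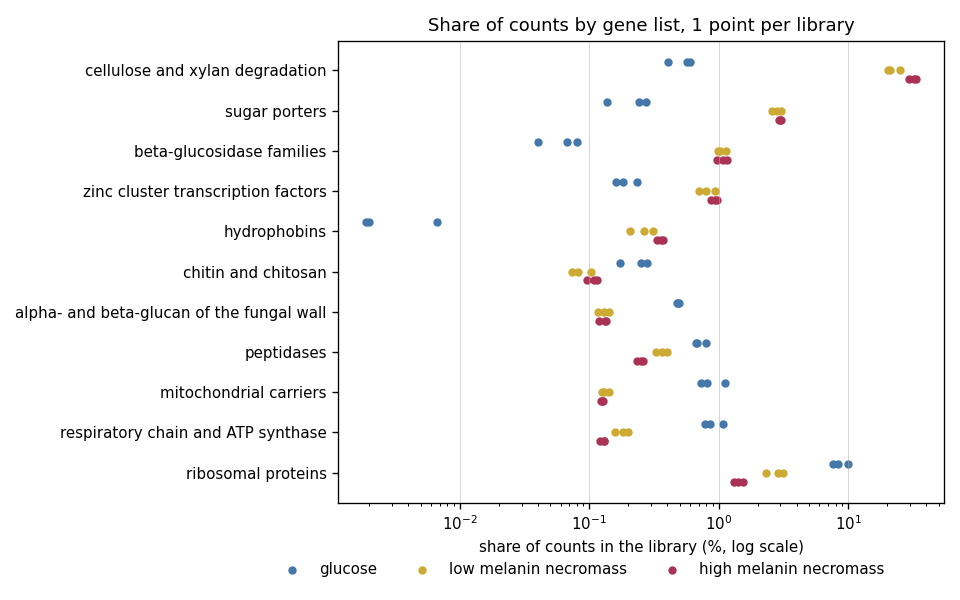
The share of counts taken by 11 gene lists (%, log scale, x axis) is shown with 1 point per library, coloured by substrate. The cellulose and xylan list moved from a mean of 0.524% on glucose to 31.9% on high melanin necromass, while the ribosomal protein list moved from 8.67% to 1.42%.

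The same shift was followed by function with lists built from annotation tags. These tags were at hand only for 2086 genes that had passed the study's own thresholds in at least 1 comparison. A high share of called genes in a list follows from that choice, and counts per list describe direction only. Over all genes tested, 13.5% were up-regulated and 8.8% down-regulated. The 31 cellulose and xylan genes held 32.3%, 29.6% and 33.6% of all counts on high melanin necromass, 0.407%, 0.602% and 0.564% on glucose and 20.3%, 25% and 21.2% on low melanin necromass. All 140 genes with a CAZyme tag together held 34.6% ± 1.95 on high melanin necromass and 1.73% ± 0.296 on glucose (SD, n = 3). Genes without an entry in the annotation held 46.9% ± 1.59 and 65.7% ± 0.637.

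The cellulose and xylan list had 27 up-regulated and 4 down-regulated members, with a median log2 fold change of 8.21 against 0.02 over all genes tested. The 4 down-regulated members were 2 expansin-like genes (protein ID = 105293 and 120407), the GH12 gene 97721 and the GH54 gene 72252, with log2 fold changes of -4.72, -4.5, -3.47 and -2.66. All 15 genes whose product carries a cellulose-binding module of family CBM1 were up-regulated. The 10 members of the beta-glucosidase families GH1 and GH3 were up-regulated too, by 2.29 to 8.59. Among them, the GH1 gene 127115 rose from 211 ± 169.7 to 4378 ± 896 CPM and the GH3 gene 136547 from 8.84 ± 2.62 to 3403 ± 199 CPM (SD, n = 3). Of 30 sugar porter genes, 24 were up-regulated and 5 down-regulated, and the second most abundant, 138519, rose by 6.76 ± 0.27 (SE, edgeR adjusted p = 3.89e-08). In the zinc cluster transcription factor list 25 of 40 genes were up-regulated and 11 down-regulated. Its most abundant members were 98788, from 159 ± 43.0 to 3116 ± 209.9 CPM, and 105117, from 22.4 ± 5.85 to 2436 ± 173 CPM (SD, n = 3).

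The sizes of the largest increases rest on very low levels on glucose. Among the 14 cellulose and xylan genes with at least 1000 CPM on high melanin necromass, the level on glucose was 0.272% to 2.34% of that on low melanin necromass (median 0.305%). It was 0.129% to 1.58% of that on high melanin necromass (median 0.198%). The 12 of them that lay within 2 times the share given next had 0.272% to 0.4% of the low melanin level and 0.129% to 0.337% of the high melanin level. Because that share is a percentage of the low melanin level, these 2 ranges cannot be compared for closeness. Over the 10 genes with the lowest such ratio in the whole table, the glucose libraries held 0.334%, 0.328% and 0.222% of the low melanin level, with single genes between 0.272% and 0.306%. Of the 1257 up-regulated genes, 60 had a glucose level within 2 times this share. All 10 with the largest increase were among them, which the use of the lowest ratios to set the share favours by construction. Whether the reads of these 60 genes on glucose came from those cultures was not tested. Their fold changes are given as measured.

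**Figure D3:**
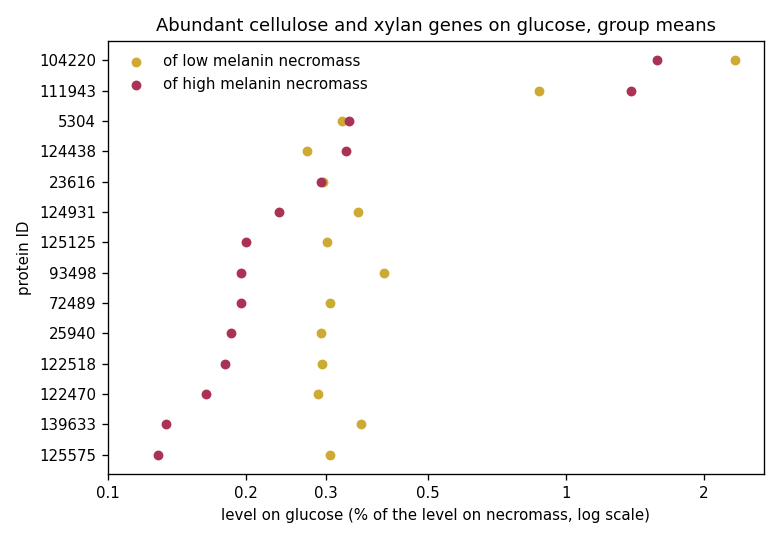
The mean level on glucose of the 14 most abundant cellulose and xylan genes is shown as a percentage (log scale, x axis) of their mean level on low (yellow) and high (red) melanin necromass, 1 row per protein ID. In 12 genes, picked by a limit on the yellow value, the yellow points stand within 0.272% to 0.4% and the red points run from 0.129% to 0.337%.

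Among genes that reached a mean of 10 CPM, the largest increase was that of 38144, whose product has the transmembrane and flavin- and NAD-binding domains of ferric reductases, enzymes that reduce iron outside the cell before uptake. It had 41, 29 and 16 counts on glucose, 4406, 12967 and 3307 on low melanin necromass and 45804, 38570 and 39137 on high melanin necromass. The groups were separate on all 3 substrates, and the log2 fold change was 10.41 ± 0.64 versus glucose (SE, edgeR adjusted p = 4.35e-07) and 2.54 ± 0.44 versus low melanin necromass (edgeR adjusted p = 0.00885). Gene 120327, without annotation tags, had 8, 8 and 3 counts on glucose, 1106, 3122 and 798 on low melanin necromass and 9062, 8328 and 8926 on high melanin necromass, and its log2 fold change was 10.33 ± 0.64 versus glucose. In both genes low melanin replicate 2 was the highest of its group. Next came the CE15 gene 125575, a glucuronoyl esterase family with a CBM1 module, at 9.59, the AA9 gene 139633 at 9.55, the protein kinase gene 71448 at 9.39 and the hemerythrin-domain gene 92851 at 9.39. The remaining 4 were the AAA-domain ATPase gene 45640 (9.26), the GH6 gene 122470 (9.25), the methyltransferase-domain gene 81487 (9.24) and the AA9 gene 122518 (9.12). Of these 10 genes, 6 were also higher on high than on low melanin necromass by the criterion given below. For 3 of the 6 (38144, 125575 and 81487) that call was lost without low melanin replicate 1, at edgeR adjusted p of 0.0515, 0.0549 and 0.0656. The call of 81487 was also lost without high melanin replicate 1 (0.0798) or 3 (0.0569), and that of 125575 without low melanin replicate 3 (0.0525). Every glucose library was below the floor of 3 counts in 71448 (2, 1 and 1) and in 92851 and 81487 (1, 0 and 0 each). The sizes and ranks of these increases are therefore uncertain. With 1 library left out, the log2 fold change was 9.23 to 9.69 for 71448, 8.94 to 11.26 for 92851 and 8.79 to 11.12 for 81487.

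Most of the listed chitinase genes rose on high melanin necromass, although the one most abundant on glucose fell. Of 16 chitin and chitosan genes, 12 were up-regulated versus glucose, 3 were down-regulated and 1 was not called. Their median log2 fold change was 3.91, or 3.64 with the gene that had 0 counts on glucose (130024) set at its lower bound. Within the list, 11 of 12 GH18 genes were up-regulated and 1 was down-regulated. The share of all counts in the list was nevertheless lower on high melanin necromass, at 0.108%, 0.115% and 0.0959%, than on glucose, at 0.173%, 0.28% and 0.252%. The GH18 gene 142123 accounted for most of the glucose share, with 33382, 53240 and 49789 counts on glucose against 1400, 1527 and 1411 on high melanin necromass, and its log2 fold change was -5.07 ± 0.32 (SE, edgeR adjusted p = 5.2e-07). The most abundant up-regulated GH18 gene, 124526, had 205, 158 and 183 counts on glucose, 3698, 6173 and 3797 on low melanin necromass and 11361, 12722 and 10334 on high melanin necromass. Its log2 fold change was 5.9 ± 0.19 versus glucose (edgeR adjusted p = 1.53e-08) and 1.27 ± 0.16 versus low melanin necromass (edgeR adjusted p = 0.00327). The chitosanase gene 57859 (GH75) and the GH89 gene 71653 were the other down-regulated members, at -3.03 and -3.75.

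Genes for the other wall polymers moved in both directions. Of 10 mannan genes 9 were up-regulated, for example the GH47 gene 101105, from 61.5 ± 7.71 to 264 ± 35.2 CPM, and the GH76 gene 103113 was down-regulated, from 540.4 ± 225 to 102 ± 9.23 CPM (SD, n = 3). The call of 101105, at a log2 fold change of 2.1, was lost with scaling by library size alone, at 1.98. Of 19 genes for alpha- and beta-glucans of the fungal wall, 9 were up-regulated, 9 down-regulated and 1 was not called, and the 2 most abundant called ones fell. The GH72 gene 103899, of a family that elongates and remodels wall beta-1,3-glucan in yeasts, fell from 1498 ± 238 to 286 ± 12.7 CPM, and the GH17 gene 110434 fell from 1020.4 ± 278 to 51.2 ± 6.05 CPM. Together these 19 genes held 0.483% ± 0.00615 of counts on glucose and 0.129% ± 0.0085 on high melanin necromass (SD, n = 3). Of 17 glycosyltransferase genes 6 were up-regulated and 9 down-regulated. The GT2 gene 82061 rose by 2.66 ± 0.32 (SE, edgeR adjusted p = 4.33e-05), whereas the GT4 gene 122799 had overlapping groups, and its call at -2.38 was lost in several alternatives.

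Most of the listed genes of protein synthesis and mitochondrial energy metabolism fell. The 58 ribosomal protein genes held 9.98%, 8.4% and 7.63% of counts on glucose and 1.31%, 1.53% and 1.41% on high melanin necromass, so the lowest glucose library was above every high melanin library. Of these genes 52 were down-regulated and 4 up-regulated, with a median log2 fold change of -2.34. The 4 up-regulated genes (protein ID = 10988, 11192, 38429 and 67714) carry the ribosome tag but no domain tag in the annotation. The most abundant called member, 137938, had 65145, 60241 and 55917 counts on glucose against 13804, 15157 and 13194 on high melanin necromass, and its log2 fold change was -2.19 ± 0.14 (SE, edgeR adjusted p = 6.36e-07). Gene 124892, a ubiquitin fused to a ribosomal protein, fell by 2.27 on the log2 scale (edgeR adjusted p = 4.95e-07). The list was lower on high than on low melanin necromass as well, with an adjusted p under 0.05 in 51 of 58 genes (9.19% of all genes tested in either direction) and a median log2 difference of -0.87 against -0.01 over all genes tested. It too holds only genes that the study had called. Scaling by library size alone gave 52 genes and -0.98, and leaving out high melanin replicate 3 gave 40 genes. Of the 58 genes, 7 were lowered further by the criterion given below.

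All 7 genes of the respiratory chain and ATP synthase list were down-regulated versus glucose, where 8.8% of all genes tested were down-regulated and 13.5% up-regulated. Like the carrier and synthetase lists below, it holds only genes that the study had called. Its counts therefore do not describe the respiratory chain as a whole. The ATP synthase subunit gene 123040 (proteolipid ring) had 86760, 49679 and 55377 counts on glucose and 1964, 2010 and 2263 on high melanin necromass, and its log2 fold change was -4.99 ± 0.22 (SE, edgeR adjusted p = 7.37e-08). The catalytic-type subunit gene 124069 fell by 2.28 on the log2 scale (edgeR adjusted p = 3.71e-07). Of 9 mitochondrial carrier genes 7 were down-regulated, 1 was up-regulated and 1 was not called. The ADP/ATP carrier family gene 99772 fell from 4083 ± 758 to 688 ± 33.6 CPM and the gene 25316 from 2308 ± 318 to 212 ± 18.8 CPM (SD, n = 3). Of 8 aminoacyl-tRNA synthetase genes, which charge tRNAs with amino acids, 5 were down-regulated and 2 up-regulated. The histidine and isoleucine enzymes 140711 and 87495 fell by 2.74 and 2.31 on the log2 scale. The median difference between the necromass types was -0.0057 in the carrier list and -0.001 in the synthetase list.

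The 10 largest decreases were a mixed set. The cytochrome P450 gene 77832 had 1467, 3070 and 2132 counts on glucose and 2, 1 and 1 on high melanin necromass, and its log2 fold change was -10.69 ± 0.5 (SE, edgeR adjusted p = 9.16e-08). The GT32 gene 108458 followed with 5953, 5487 and 7319 counts against 3, 0 and 9, and then the AMP-binding gene 87569 with 71447, 18254 and 18287 against 1, 13 and 56. The S53 peptidase gene 116864 had 24627, 45140 and 32655 counts against 20, 16 and 41. The others were the amino acid transporter gene 104258 (-9.96), the oxygenase gene 102900 (-9.93) and the genes 91123, 87440, 38774 and 71986 without a described function (-9.84 to -9.43). Glucose replicate 1 was the highest glucose library in 6 of these 10 genes. Gene 71986 rests on that library, with 2964 counts there against 86 and 51. Gene 104258 had 28441 counts there against 6730 and 4549, and gene 87440 had 42644 against 7497 and 9178. High melanin replicate 3 was the highest of its group in 9 of these 10 genes. In all 10 the level on high melanin necromass was within 2 times the lowest share of the glucose level found in these libraries. That share was 0.184%, 0.25% and 0.318% over the 10 genes with the lowest ratio among those with at least 300 CPM on glucose. Because the lowest ratios set it, the largest decreases fall within this limit almost by construction. Whether the reads of these 10 genes on high melanin necromass came from the necromass cultures was not tested. Outside this set, the ABC transporter gene 142607 of the pleiotropic drug resistance type fell from 5497 ± 1475 CPM, among the 10 most abundant genes of glucose, to 15 ± 4.62 CPM (SD, n = 3).

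To find changes that were much larger on high than on low melanin necromass, genes called versus glucose were also required to differ between the necromass types in the same direction, by at least 1 on the log2 scale with an adjusted p under 0.05. Glucose cancels out of the size of this second contrast, but the glucose libraries still enter the shared estimate of spread behind its p-values. By this criterion 172 genes were raised further (1.85% of the genes tested) and 41 were lowered further (0.44%), which are 13.7% of the up-regulated and 5.01% of the down-regulated genes. Increases were 80.8% of the 213 genes, and 59.2% with scaling by library size alone. In the second contrast alone, 240 genes were higher and 103 lower on high melanin necromass by the same limits. Both requirements use the same high melanin libraries, so a deviation in these libraries favours passing both. Of the 172 genes, 108 were also called up on low melanin necromass and 64 were not, and 9 had a negative log2 fold change there. Of the 41 genes, 13 were also called down on low melanin necromass and 28 were not. A difference of at least 2 on the log2 scale was reached by 55 of the raised and 6 of the lowered genes. In every one of the 213 genes the high and low melanin libraries did not overlap, which the test favours by construction.

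**Figure D4:**
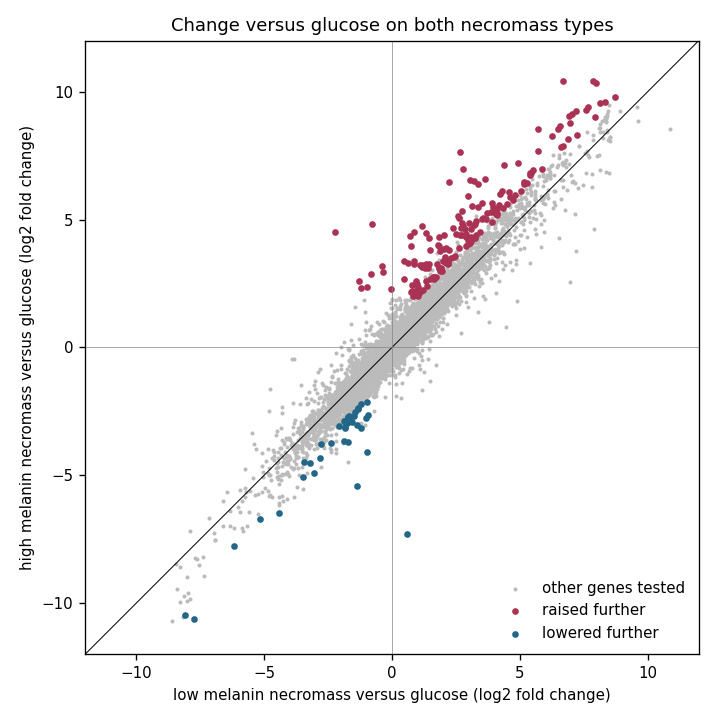
Each point is 1 of the 9312 genes tested, with its log2 fold change versus glucose on low (x axis) and on high (y axis) melanin necromass, and the line marks equal change. Both axes share the glucose libraries, so the spread along the line is not evidence of likeness, whereas the 172 genes raised further (red) lie above the line and the 41 lowered further (blue) below it.

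The number of genes raised further depended on single libraries. It was 91 and 89 without low melanin replicates 1 and 3, and 89, 113 and 90 without high melanin replicates 1, 2 and 3, while it was 178 without low melanin replicate 2. That library was the highest of the low melanin group in 123 of the 172 genes (71.5%), against 37.6% of all genes tested, and so lay nearest to the high melanin libraries. Low melanin replicate 3 was the highest of its group in 35 of the 41 genes lowered further, against 36.1% of all genes tested. The criterion was not evaluated in the glmTreat test or in the run of the 2 groups alone. Of the 172 genes, 66 kept their call in every other alternative run, 94 lost it in at least 1, and 23 were not tested in at least 1. Of the 41 genes 14 kept it. When glucose replicate 1 was left out, the number raised further was 204 and the number lowered further 86. The number lowered further was 72 when low melanin replicate 2 was left out. It was 20 without low melanin replicate 3 and 19 without high melanin replicate 1.

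The genes raised further were mostly of low to moderate level. Their mean on high melanin necromass was under 1 CPM in 7 genes, 1 to 10 CPM in 69, 10 to 100 CPM in 70 and at least 100 CPM in 26. Only 1 of the 10 most abundant genes, the AA9 gene 139633, was among them, with 73004, 114162 and 74619 counts on low and 268372, 235795 and 228646 on high melanin necromass, a log2 difference of 1.42 ± 0.23 (SE, edgeR adjusted p = 0.00668). The CE15 gene 125575 had 26838, 39995 and 25885 counts on low and 76226, 79478 and 73143 on high melanin necromass, a difference of 1.24 ± 0.22 (edgeR adjusted p = 0.00921, and 0.0549 and 0.0525 without low melanin replicates 1 and 3). The cellobiohydrolase-family genes 125125 and 122470 differed by 0.59 ± 0.28 and 0.81 ± 0.28 between the necromass types, with no overlap but edgeR adjusted p of 0.216 and 0.1. Both differences were under the required 1. Over the alternative runs of edgeR and DESeq2 the adjusted p ran from 0.0252 to 0.485 and from 0.0015 to 0.303. Of the 10 most abundant genes 9 were therefore not among those raised further, although their summed share was higher on high melanin necromass.

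Among the abundant genes raised further, the HET-domain gene 140865 showed the clearest separation. HET domains are found in fungal proteins that control incompatibility between strains. The gene had 159, 129 and 125 counts on glucose, 1190, 2009 and 1083 on low melanin necromass and 13919, 10476 and 11825 on high melanin necromass. The log2 fold change was 6.38 ± 0.24 versus glucose (SE, edgeR adjusted p = 3.29e-08) and 3.02 ± 0.21 versus low melanin necromass (edgeR adjusted p = 0.000417, and at most 0.00396 in any alternative). With it, the share of the 12 HET-domain genes was 0.0612% ± 0.0056 on high and 0.0165% ± 0.00187 on low melanin necromass (SD, n = 3). The median log2 difference between the necromass types over the 12 genes was only 0.02, so the higher share does not describe the list as a whole. Of those 12 genes 9 were up-regulated and 3 down-regulated versus glucose.

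The 10 largest differences among the genes raised further were in genes of low level. Gene 68679, without annotation, had 2 counts in each glucose library, 0, 1 and 0 on low melanin necromass and 56, 52 and 45 on high melanin necromass, a log2 difference of 6.73 ± 0.5 between the necromass types (SE, edgeR adjusted p = 0.000417). Gene 128151, an aminotransferase of class V, had 0, 2 and 0 counts on glucose, 1, 0 and 0 on low and 27, 21 and 23 on high melanin necromass. Gene 85331 had 3, 0 and 0 counts on glucose, 6, 14 and 1 on low and 236, 229 and 242 on high melanin necromass. The gene 128803, of the DNA photolyase family that repairs ultraviolet damage, had 1, 0 and 0, then 2, 4 and 0, then 41, 55 and 32 counts. In all 4 genes the low melanin libraries stayed at 14 counts or fewer, and the high melanin libraries stood apart. Genes 68679, 128151 and 128803 reached the count minimum only in the high melanin libraries, which favours their difference by construction. They were not tested when any of these libraries was left out. Genes 69405, 119586 and 140582 completed the 10 with those described next, with differences of 3.88, 3.7 and 3.64. Gene 140582 had 2, 0 and 0 counts on glucose, 0, 2 and 2 on low and 14, 16 and 26 on high melanin necromass. It too reached the count minimum only in the high melanin libraries and was not tested without any of them. Its call was lost without low melanin replicate 1 or 3.

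Multicopper oxidases and chitinases also appeared in this set. The AA1 multicopper oxidase gene 104519, of the family that holds laccases, had 0 counts in every glucose library, 9, 15 and 14 on low and 239, 142 and 155 on high melanin necromass. Its level on high melanin necromass, 8.13 ± 1.98 CPM, was at least 51.8-fold higher than the floor of 3 counts per glucose library, and the difference from low melanin necromass was 3.72 ± 0.3 (SE, edgeR adjusted p = 0.00138). It was the only 1 of 5 AA1 genes raised further, and 2 of the 5, 36885 and 86804, were down-regulated versus glucose, at -3.62 and -4.51. The AA1 list as a whole held 0.0193% ± 0.00326 of counts on glucose and 0.00475% ± 0.00057 on high melanin necromass (SD, n = 3). The GH18 genes 86290 and 104468, both with a CBM1 module, were also among the 10. Gene 86290 had 1, 0 and 0 counts on glucose, 1, 5 and 3 on low and 50, 103 and 32 on high melanin necromass (difference 4.22 ± 0.59, edgeR adjusted p = 0.00426). Gene 104468 had 3, 1 and 2, then 1, 4 and 5, then 30, 68 and 38 counts (3.64 ± 0.5, edgeR adjusted p = 0.00388).

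In total 8 of the 16 chitin and chitosan genes and 7 of the 12 GH18 genes were raised further, against 1.85% of all genes tested, although these lists hold only genes that the study had called. In addition to 124526, 86290 and 104468, the GH18 genes were 133349, 94061, 7503 and 79622, with differences of 3.17, 3.55, 2.14 and 1.12, and the list's eighth gene was the AA11 monooxygenase gene 135815 at 2.29. Gene 133349 had 72, 95 and 50 counts on low and 593, 970 and 511 on high melanin necromass, and gene 94061 had 4, 3 and 6 against 50, 70 and 46. High melanin replicate 2 was the highest library in 124526, 86290, 104468, 133349, 94061 and 7503. The calls of 133349 and 135815 were lost without low melanin replicate 1 or 3 (highest edgeR adjusted p = 0.0628 and 0.093), and that of 79622 in 9 alternatives (0.0502 to 0.193). Genes 86290, 104468 and 135815 passed the count minimum only through the high melanin libraries, which favours their difference by construction. They were not tested when any of these libraries was left out. Without high melanin replicate 3, 13 of the 16 genes were tested and 4, in place of 8, were higher with an adjusted p under 0.05. The GH18 gene 130024 went the other way between the necromass types, with 0 counts in every glucose library, 155, 233 and 312 on low and 45, 55 and 44 on high melanin necromass. Also, 2 genes of the list were lowered further (0.44% of all genes tested), the GH18 gene 142123 and the GH89 gene 71653. Gene 142123 had 2846, 3901 and 5660 counts on low melanin necromass, a difference of -1.59 ± 0.28 (SE, edgeR adjusted p = 0.00905). Its call was lost without high melanin replicate 1 (0.057), and that of 71653 in 6 alternatives. These chitin genes, apart from 86290, 104468, 124526 and 142123, were singled out after their values were seen.

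**Figure D5:**
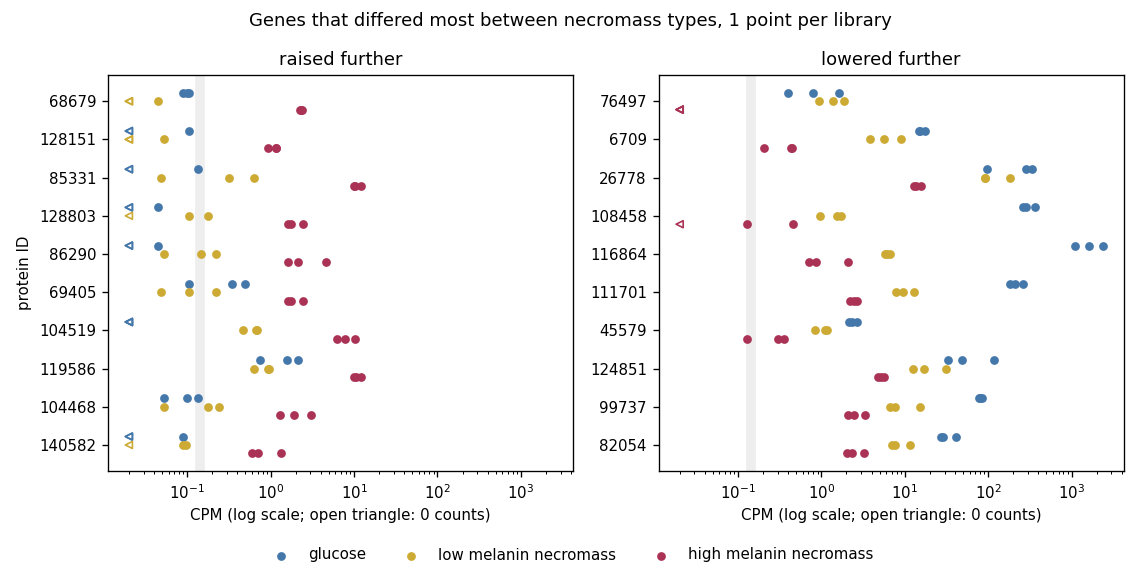
The level of the 10 genes with the largest and the 10 with the lowest difference between high and low melanin necromass, among genes raised (left) and lowered (right) further, is shown in CPM (log scale, x axis), 1 point per library and 1 row per protein ID. Open triangles mark 0 counts, the grey band is the floor of 3 counts (0.128 to 0.158 CPM), and the red high melanin points stand apart from the yellow low melanin points in every row.

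The lowered genes ranged over a wider span of levels. The major facilitator gene 76497 had 9, 15 and 33 counts on glucose, 18, 31 and 39 on low melanin necromass and 0 in every high melanin library, so that, against the floor of 3 counts per library, it was lower by at least 6.16-fold compared with glucose and by at least 9.26-fold compared with the low melanin group. It was the only gene lowered further whose change on low melanin necromass was positive. Gene 6709 had 340, 336 and 300 counts on glucose, 108, 86 and 188 on low and 10, 10 and 4 on high melanin necromass, a difference of -4.07 ± 0.39 (SE, edgeR adjusted p = 0.00103). Gene 26778 encodes a serine peptidase of family S28. It had 2204, 5474 and 6775 counts on glucose, 1754, 2038 and 3743 on low and 316, 352 and 257 on high melanin necromass, a difference of -3.11 ± 0.45 (edgeR adjusted p = 0.00473). The glucose and low melanin groups overlapped in 76497 and 26778, and only the high melanin libraries stood apart. The GH16 gene 111701 had 4161, 4934 and 4219 counts on glucose, 183, 178 and 264 on low and 62, 56 and 44 on high melanin necromass, a stepwise fall with a difference of -2.04 ± 0.21 (edgeR adjusted p = 0.00131).

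The 6 other genes among the 10 lowest differences were 108458 (GT32, -2.9), 116864 (S53 peptidase, -2.36), 45579 (-1.97), 124851 (a zinc-binding dehydrogenase, -1.96), 99737 (-1.9) and 82054 (GT32, -1.79). In 108458 and 116864 the low melanin level, at 0.465% and 0.365% of the glucose level, was itself within 2 times the lowest share found there (0.451% over 10 genes), so the size of their difference between the necromass types depends on reads near that share. The calls of 108458 and 116864 were lost without high melanin replicate 1, where their differences were -2.68 and -2.15. That of 108458 was also lost without low melanin replicate 1 (-2.85), and that of 45579 without low melanin replicate 3 (-1.88). That of 124851 was lost without any of 5 libraries, at -2.07 to -1.51.

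Peptidases differed between the necromass types in both directions. Of 68 peptidase genes 37 were up-regulated and 25 down-regulated on high melanin necromass versus glucose, with 5 raised further and 1 lowered further by the annotation tags. The S28 gene 26778 has no entry there and is not counted in this list. Their share of counts was 0.715% ± 0.0755 on glucose, 0.364% ± 0.0374 on low and 0.247% ± 0.012 on high melanin necromass (SD, n = 3). Between the necromass types 6 genes were higher and 7 lower on high melanin necromass by at least 1 on the log2 scale with an adjusted p under 0.05, where 2.58% and 1.11% of all genes tested did so. Since the list holds only genes that the study had called, a larger share than among all genes follows from that choice. Of these 7 genes 5 were up-regulated versus glucose on both substrates. After their values were seen, the glutamic peptidase gene 76688 (G01) was singled out as higher, with 11, 45 and 28 counts on low and 220, 205 and 242 on high melanin necromass. The subtilisin-family gene 24449 (S08) was singled out as lower, with 1135, 1201 and 1525 against 82, 183 and 117. Gene 107701, the second most abundant called member of the list, fell by 2.82 on the log2 scale versus glucose and carries WD40 repeats besides its peptidase tag. The oligopeptide transporter list, with 4 of 6 genes up-regulated, held 0.0676% of counts on glucose, 0.4% on low and 0.173% on high melanin necromass. Its genes 94554 and 138633 changed by 5.56 and -7.52 on the log2 scale versus glucose.

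Most of the listed hydrophobin, cytochrome P450 and secondary metabolism genes, all called by the study, rose on high melanin necromass. Of 5 hydrophobin genes, which encode small secreted proteins that coat hyphae and spores, 3 were up-regulated, 1 was down-regulated and 1 was not called. Gene 125486 had 268, 193 and 190 counts on glucose and 53897, 54064 and 50879 on high melanin necromass, and its log2 fold change was 7.86 ± 0.23 (SE, edgeR adjusted p = 1.09e-08). Gene 125146 had 1026, 121 and 111 counts on glucose and 28627, 31307 and 25741 on high melanin necromass (6.09 ± 0.83, edgeR adjusted p = 9.7e-05), with glucose replicate 1 the highest of its group in both. Of 23 cytochrome P450 genes 16 were up-regulated and 3 down-regulated, and the abundant gene 38294 rose from 42.2 ± 8.5 to 958 ± 117 CPM (SD, n = 3). The call of the P450 gene 88726, at 2.24, was lost without glucose replicate 1, at 1.74. Of 9 polyketide and nonribosomal peptide synthase genes, which build secondary metabolites, 7 were up-regulated and 1 was down-regulated. Genes 91563 and 88360 rose by 3.08 and 3.23 on the log2 scale. Of 12 amino acid permease genes 7 were up-regulated and 3 down-regulated, with 86271 at 7.47 and 138789 at -2.17. Of 5 catalase genes, which break down hydrogen peroxide, 4 were up-regulated, such as 39633 at 5.8, and the abundant gene 70058 fell from 497 ± 338 to 60.9 ± 5.88 CPM.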

How the data were processed

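Poly(A) RNA of 9 cultures was sequenced in paired-end mode by the authors, who trimmed the reads and ran kallisto version 0.48.0 on the RUT-C30 transcriptome. The deposited table holds estimated counts per gene, rounded to whole numbers by the authors, not scaled for library size, and values from 1000000 upwards carry 6 significant digits. Reads that match similar transcripts are divided by kallisto's estimation, so counts of close paralogs are uncertain. Columns of no sample numbered 0, and the fold changes and p-values of the study's own comparisons were not used. Genes that reached 10 counts in 3 or more libraries were tested with edgeR version 4.0.16 under R version 4.3.3, by TMM scaling and 1 quasi-likelihood fit of all 9 libraries in 3 groups (common biological coefficient of variation 0.193). Adjusted p values are from this fit with Benjamini-Hochberg adjustment over 9312 genes, and SE is that implied by the F statistic. The fit was tested on simulated data. Single values were compared by exact two-sided permutation tests.

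The lists and members were chosen with earlier results of these data known. Of the lists, 21 were built from the tags in a partial copy of the study's annotation table, which holds 2086 genes. Named were the 10 largest increases and decreases among called genes without overlap (at least 10 counts in each library and 10 CPM on average in the higher group), the 10 genes with the highest share on each substrate, the 10 largest and lowest differences among genes raised or lowered further, and the 2 most abundant called members of each list. Alternatives were DESeq2 version 1.42.0, RLE, upper-quartile and library size scaling, TMM without the 100 most abundant genes, no filter, the 2 groups alone, glmTreat with a log2 fold change of 1, a replicate block, and leaving out each library. Members of groups of 5 or fewer outside these rules were named after their values were seen.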

Additional observations from a re-analysis of the deposited data

How the results depend on the processing

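Genes up-regulated on high melanin necromass versus glucose numbered 1186 to 1309 and genes down-regulated 762 to 906 over all alternatives, within 1.5 times of 1257 and 819. Genes raised further numbered 172, and 89 to 204 with 1 library left out. Genes lowered further numbered 41, and 62 with DESeq2, 91 with library size alone and 19 to 86 with 1 library left out. The share in the 10 most abundant genes and the number of genes that hold 50% of counts kept their direction in every alternative run except 1, since outside the 10 most abundant genes 784 genes held 50% of counts on high melanin necromass against 473 on glucose. Among named genes 10 of 1538 values versus glucose (4 genes) fell below the thresholds. So did 11 of 302 values (5 genes) among the 20 genes named for their difference between the necromass types, and none reversed. These totals hold only runs in which a gene was tested. Genes 68679, 128151, 128803, 86290, 104468 and 140582 fell under the count minimum when any high melanin library was left out. Their stability in those runs is therefore unknown. Over all genes raised or lowered further, 94 of 172 and 27 of 41 lost that call in at least 1 alternative. Replicate numbers did not pair the libraries, since same-numbered cultures correlated by -0.17 to 0.08 in their deviations. With the replicate number as a block, 1284 and 795 genes were called versus glucose, and 145 and 42 were raised and lowered further. At this depth, differences between levels below 0.158 CPM were not detectable.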
